A study of Homo sapiens with 6 samples.

Results

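The genes described are 35 genes of glucose uptake, glycolysis and the hypoxia response, taken by name from the 60671 genes measured by RNA-Seq in U87, a long-established line of human glioblastoma cells. They were chosen for their function, with earlier results of these data known. They comprise 2 glucose transporters, 19 glycolytic enzymes, 5 hypoxia-inducible factors (HIF) or their regulators, and 9 HIF targets. The 3 treated libraries came from cells exposed for 48 h to 100 μM rutaecarpine, an alkaloid of Evodia rutaecarpa that the study examined as an activator of the aryl hydrocarbon receptor (AhR). The other 3 libraries came from solvent control cells, and both groups received 0.1% DMSO in medium without serum. The growth protocol gives an incubator of air and CO2, and no sample was labelled as kept at low oxygen. All samples were of 1 cell line, and nothing in the labels says that the replicates came from separate cultures, so p-values measure the spread between these samples.

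Glycolysis turns glucose into pyruvate in the cytosol. Transporters of the SLC2A (GLUT) family let glucose in, hexokinases trap it by phosphorylation, phosphofructokinases commit it to the pathway, and lactate dehydrogenase returns pyruvate to lactate, a route that many tumour cells use even in the presence of oxygen. When oxygen is low, the prolyl hydroxylases encoded by EGLN1 and EGLN3 no longer mark the HIF alpha subunits (HIF1A and EPAS1) for destruction through VHL. HIF1A and EPAS1 then pair with ARNT, the same partner that AhR uses. Between them, the HIF complexes raise the transcription of most glycolytic enzymes and of genes such as CA9, ADM and BNIP3. Which alpha subunit acts on which gene was not tested here. Oxygen controls the HIF alpha subunits mainly through the stability of the protein, which these RNA data do not measure.

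Values are in TPM, which correct for the length of a gene and bring each library to a common total. Levels of different genes are therefore compared per length, while read numbers cannot be recovered from them. Differences are log2 fold changes of TPM + 1, rutaecarpine over control, from limma fitted over the 14377 genes with at least 1 TPM in at least 3 libraries. All 35 genes passed this filter. A gene is said to have risen or fallen where its p-value, adjusted over all 14377 genes by the Benjamini-Hochberg method, was at most 0.05.

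Control replicate 3 stood apart. Its median log2 value over the tested genes was 3.56, against 3.95 and 3.97 in the other control libraries and 3.81 to 4.00 in the rutaecarpine libraries, and it correlated with the other controls at r = 0.965, where those correlated with each other at 0.986. Results are therefore also given without it. The libraries held VIM at 4430 to 7968 TPM and FN1 at 2816 to 6721 TPM, both abundant in mesenchymal-type glioma cells. The astrocyte gene GFAP was at 3.48 to 5.41 TPM and the neural stem cell gene SOX2 at no more than 0.06 TPM. CD44, NES and OLIG2 were at 415 to 837, 12.3 to 21.0 and 1.48 to 4.11 TPM. CDKN2A and MTAP, which U87 cells are known to lack, reached at most 0.06 and 0.01 TPM. Of the markers of other cells, PTPRC (leukocyte), PECAM1 (endothelium) and EPCAM (epithelium) reached at most 0.03, 1.33 and 0.8 TPM. CD68, a gene used as a macrophage marker, was at 319 to 511 TPM, although all samples were of 1 cell line and PTPRC was near 0. Of 13 identity markers, 7 could be tested. VIM, FN1, NES and CD68 fell and OLIG2 rose, where 4.68% and 4.6% of all tested genes did. With each library centred on its median, VIM, CD68 and OLIG2 no longer passed (limma adjusted p = 0.0768, 0.12 and 0.0657). When 1 library was left out in turn, FN1 passed in 6 of 6 fits, VIM in 3, and NES, CD68 and OLIG2 in 1 each. In bulk RNA of 1 line, fewer cells in a given state and less RNA per cell cannot be told apart. The part of these shifts in the results below was not tested.

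HIF and AhR complexes read related letters. The cores ACGTG and GCGTG are both known from HIF binding, and GCGTG is also the core known from AhR binding. Both strings were looked for on both strands in the 250 bases before each RefSeq transcript start (GRCh38.p14). RefSeq windows matched 31 of the 35 genes, with 55 windows. SLC2A3, VHL, BNIP3L and NDRG1 were not matched. ACGTG stood in 20 of the 55 windows (36.4%) and GCGTG in 19 (34.5%), where 18.5% and 32.2% of all 35116 windows of this length held them. Windows of the same gene can overlap and share a match, so they are not independent. By gene, 17 of the 31 held ACGTG in at least 1 window and 17 held GCGTG. The share by gene over all promoters was not taken. The palindrome CACGTG counts as ACGTG on each strand, and base composition was not matched. Stretches of 30 bases around the matches are shown for HK2, CA9, ENO1 and PFKL, whose RNA moved, read 5′ to 3′ on the strand of the gene with the core or its reverse complement in capitals.
HK2, first stretch: agccacggaccaCACGTcccatctcaggcg
HK2, second stretch: agccaatggGCGTGcgCACGTcactgatcc
CA9: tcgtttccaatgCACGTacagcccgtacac
ENO1, first stretch: cacccccctttcCACGCtactgcagccgtc
ENO1, second stretch: ggagctgaggggGCGTGccccggaggcggg
PFKL: tgctcagggcccGCGTGacattgcacaggt
The HK2 stretches are at chr2:74833886-74833915 and chr2:74834063-74834092 (plus strand), with matches that begin 229, 55 and 48 bases before the start. CA9 had 1 match, 18 bases before its start (chr9:35673898-35673927, plus strand). HK2 has a further RefSeq start downstream, with both cores in its window as well. The ENO1 stretches, at chr1:8878835-8878864 and chr1:8878741-8878770 (minus strand), hold matches that begin 166 and 72 bases before the start, and the PFKL match begins 164 bases before it (chr21:44299877-44299906, plus strand). The PFKL stretch and the first HK2 stretch lie outside every exon of their gene in GENCODE release 29, while the other 4 stretches lie within an exon of a transcript of the same gene that begins farther upstream. PKM, which also fell, had neither core in its window. A match describes the letters and says nothing of binding in these cells.

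Among the 35 genes, 2 rose and 4 fell, against 9.29% of all tested genes that moved in either direction (4.6% up and 4.68% down). HK2 and SLC2A3 rose. PFKL, ENO1, PKM and CA9 fell. HK2 alone also passed an absolute log2 fold change of 1, which together with the adjusted p 3.51% of all tested genes did. The groups did not overlap for 17 of the 35 genes, 4 with rutaecarpine above (19.3% of all genes) and 13 with rutaecarpine below (14.0% of all genes), where 33.3% of all genes had separate groups. The median log2 fold change was -0.15 over the 35 genes and 0.08 over all tested genes. Without control replicate 3, 2 of the 35 genes rose and 15 fell, against 8.36% and 10.3% of all tested genes (18.7% in either direction), and the medians were -0.22 and -0.01. Separate groups were then found for 4 genes with rutaecarpine above and 21 with rutaecarpine below, where 23.9% and 26.3% of all genes had them (50.2% in either direction). With each library centred on its median, 2 of the 35 rose and 3 fell, against 4.12% and 5.47% of all genes (9.59% in either direction).

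**Figure D1:**
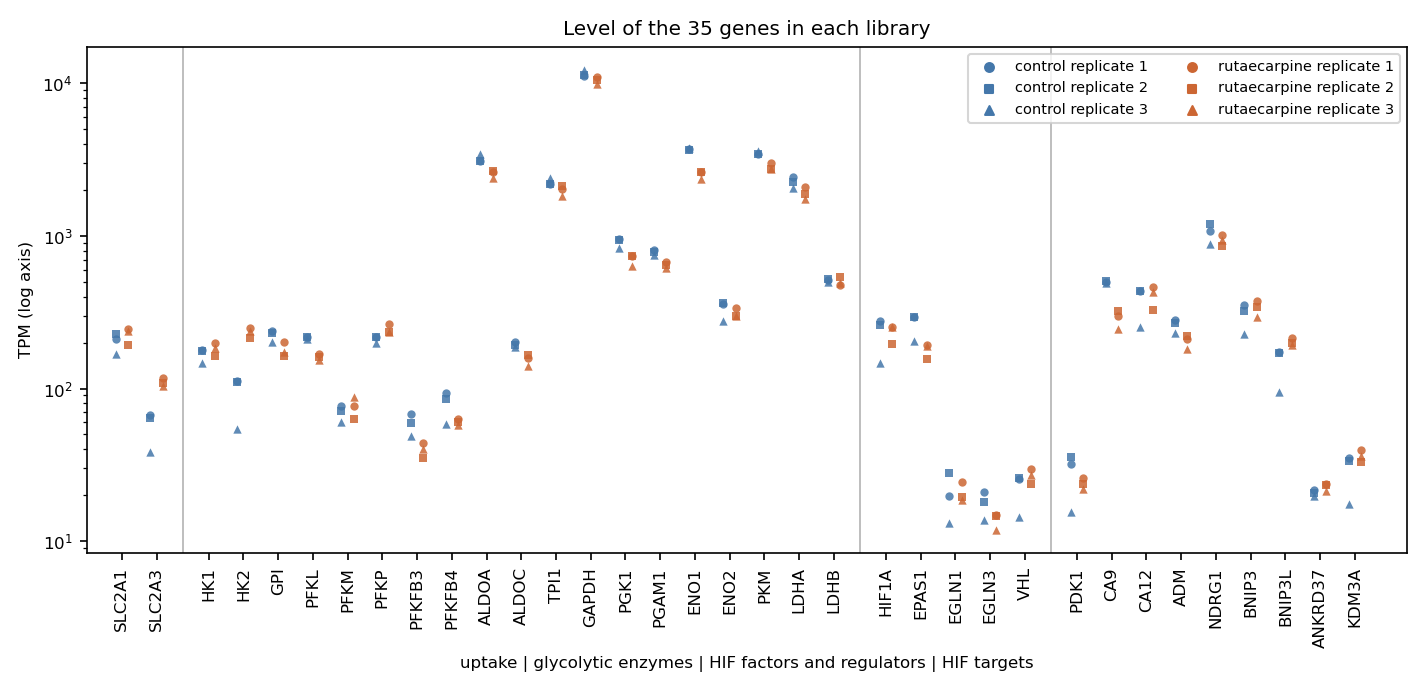
Level of each of the 35 genes in TPM on a log axis, 1 point per library, with control libraries in blue and rutaecarpine libraries in orange. HK2 and SLC2A3 lie higher in all 3 rutaecarpine libraries, ENO1, PFKL and CA9 lie lower in all 3, and the triangle of control replicate 3 lies below the other controls for many genes, among them HK2, HIF1A and EPAS1.

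Of the 2 glucose transporters, SLC2A3 rose and SLC2A1 did not pass the test. SLC2A3 (GLUT3), a transporter of high affinity that neurons and many gliomas use, was at 67.2, 63.6 and 38.3 TPM in the control libraries and at 116, 109 and 104 TPM in the rutaecarpine libraries. Every rutaecarpine library lay above every control library. The mean rose from 56.3 ± 15.7 to 110.1 ± 6.06 TPM (SD, n = 3), a change of 0.99 on the log2 scale with an SE of 0.21 (limma adjusted p = 0.0285). SLC2A1 (GLUT1), a transporter that HIF is known to induce, was at 211, 229 and 168 TPM in the controls and at 244, 194 and 238 TPM after rutaecarpine. Its groups overlapped, and its log2 fold change of 0.16 had a 95% confidence interval from -0.18 to 0.49 (adjusted p = 0.542). The log2 fold change of SLC2A3 without control replicate 3 was 0.74 (adjusted p = 0.000786), and the call was lost without control replicate 2 (0.0509), without rutaecarpine replicate 1, 2 or 3 (0.116, 0.107 and 0.101) and without the filter on low TPM (0.0814). The table lists 3 SLC2A3 pseudogenes, whose summed level was 0% to 8.90% of that of SLC2A3.

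Hexokinase 2 showed the largest change of the 35 genes. HK2 (ENSG00000159399, chr2:74833981-74893359 on GRCh38, plus strand) encodes a mitochondria-bound hexokinase that is characteristic of tumours and muscle. HK2 was at 112, 111 and 54.3 TPM in the control libraries and at 249, 213 and 237 TPM in the rutaecarpine libraries. The groups were well separated, and control replicate 3 was the lowest library. The mean rose from 92.1 ± 32.8 to 233 ± 18.3 TPM (SD, n = 3), a change of 1.40 on the log2 scale with an SE of 0.27 and a 95% confidence interval from 0.77 to 2.04 (limma adjusted p = 0.0211). HK1, the housekeeping hexokinase, was at 148 to 180 TPM in the controls and 164 to 199 TPM after rutaecarpine, with a log2 fold change of 0.12 (adjusted p = 0.551). The log2 fold change of HK2 without control replicate 3 was 1.06 (adjusted p = 0.00021). Its call was lost without rutaecarpine replicate 1, 2 or 3 (adjusted p = 0.0921, 0.0765 and 0.0934) and without the filter on low TPM (0.0695).

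At the next steps of the pathway PFKL fell and no gene rose. GPI, which isomerises the hexose phosphate, was at 239, 231 and 201 TPM in the controls and 202, 163 and 174 TPM after rutaecarpine, with a log2 fold change of -0.32 (adjusted p = 0.137). Of the phosphofructokinase genes, PFKL, the liver-type subunit, was at 218, 219 and 211 TPM in the controls and 168, 161 and 154.5 TPM after rutaecarpine. The libraries of each group lay close together and the groups did not overlap. PFKL fell from 216 ± 4.24 to 161 ± 6.54 TPM (SD, n = 3), a change of -0.42 on the log2 scale with an SE of 0.07 (limma adjusted p = 0.0132). PFKP, the platelet-type subunit, was at 219, 219 and 200 TPM in the controls and 263, 235 and 233 TPM after rutaecarpine, above the controls in every library. Its log2 fold change of 0.20 did not pass the test (adjusted p = 0.207). PFKM, the muscle-type subunit, ranged from 60.7 to 76.5 TPM in the controls and from 62.7 to 88.4 TPM after rutaecarpine (log2 fold change 0.12, adjusted p = 0.66).

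PFKFB3 and PFKFB4 encode the bifunctional enzymes that make and remove the main allosteric activator of phosphofructokinase. PFKFB3 was at 68.3, 59.6 and 49.0 TPM in the controls and at 43.6, 34.95 and 40.2 TPM after rutaecarpine. All rutaecarpine libraries lay below all controls, and the log2 fold change of -0.56 had an adjusted p of 0.0647. PFKFB4 was at 93.6, 84.9 and 58.8 TPM and at 63.4, 60.1 and 57.3 TPM, with groups that overlapped through control replicate 3 and a log2 fold change of -0.36 (adjusted p = 0.255). Without control replicate 3, PFKL, PFKFB3, PFKFB4 and GPI all fell, with log2 fold changes of -0.44, -0.68, -0.56 and -0.39 (limma adjusted p = 0.00366, 0.00644, 0.00377 and 0.0283). After centring, PFKFB3 passed (log2 fold change -0.65, adjusted p = 0.0128) and PFKL did not (-0.51, 0.0703). Leaving out any library other than control replicate 3 also ended the PFKL call, with adjusted p from 0.0519 to 0.0821.

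The lower part of the pathway holds some of the most abundant RNAs of these cells. Over the 6 libraries GAPDH ranked 5th among all genes, PKM 35th, ENO1 36th, ALDOA 41st, TPI1 59th and LDHA 60th. ENO1 and PKM fell, and 5 further enzymes of this part (ALDOA, ALDOC, PGK1, PGAM1 and LDHA) did not pass over 6 libraries and passed when control replicate 3 was left out.

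ENO1 (ENSG00000074800, chr1:8861000-8879250, minus strand), the ubiquitous enolase, was at 3683, 3650 and 3764 TPM in the controls and at 2635, 2611 and 2350 TPM after rutaecarpine. The gap between the groups was far wider than the spread within either. ENO1 fell from 3699 ± 58.6 to 2532 ± 158 TPM (SD, n = 3), a change of -0.55 on the log2 scale with an SE of 0.08 (limma adjusted p = 0.00651). Leaving out any 1 library kept the ENO1 call, with log2 fold changes from -0.58 to -0.50, while centring gave a log2 fold change of -0.64 that did not pass (adjusted p = 0.0975). PKM, the pyruvate kinase that closes the pathway, was at 3448, 3444 and 3603 TPM in the controls and at 2995, 2730 and 2733 TPM after rutaecarpine. PKM fell from 3498 ± 90.5 to 2819 ± 152 TPM, a change of -0.31 on the log2 scale with an SE of 0.08 (limma adjusted p = 0.0488). The PKM call lay at the threshold, and it was lost with centred libraries (log2 fold change -0.41, adjusted p = 0.264) and when any library other than control replicate 3 was left out (0.115 to 0.221).

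The aldolases split fructose bisphosphate. ALDOA, the abundant one, was at 3089, 3077 and 3446 TPM in the controls and 2629, 2671 and 2402 TPM after rutaecarpine, and ALDOC, the brain form, was at 201, 194 and 187 TPM and at 159, 166 and 140 TPM. Both had separate groups, with log2 fold changes of -0.32 and -0.33 (limma adjusted p = 0.0656 and 0.0709). PGK1, which makes the first ATP of the pathway, was at 954, 946 and 829 TPM and at 738, 737 and 635.5 TPM, with a log2 fold change of -0.37 (adjusted p = 0.0594). PGAM1, the phosphoglycerate mutase, was at 805, 789 and 749 TPM and at 671, 642 and 617 TPM, with a log2 fold change of -0.28 (adjusted p = 0.0574). In each of these 4 genes every rutaecarpine library lay below every control, and none passed the test over 6 libraries.

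TPI1 interconverts the triose phosphates. It was at 2175, 2188 and 2391 TPM in the controls and 2021, 2107 and 1831 TPM after rutaecarpine, with a log2 fold change of -0.18 (adjusted p = 0.251). GAPDH, which oxidises glyceraldehyde phosphate and served the study as reference gene in qPCR, was at 11165, 11285 and 12216 TPM and at 10927, 10518 and 9899 TPM. The GAPDH groups were separate but close, with a log2 fold change of -0.15 and a 95% confidence interval from -0.35 to 0.06 (adjusted p = 0.36). LDHA, the lactate dehydrogenase subunit favoured in glycolytic tumours, was at 2416, 2268 and 2070 TPM and at 2086, 1892 and 1733 TPM. Its groups overlapped slightly, and its log2 fold change was -0.24 (adjusted p = 0.194). LDHB, the other subunit, and the neuronal enolase ENO2 had log2 fold changes of -0.03 and -0.09 (adjusted p = 0.834 and 0.683).

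Counted together, 1 of the 19 enzymes rose and 3 fell (4.6% and 4.68% of all tested genes did), 15 had a log2 fold change below 0 (40.7% of all tested genes did), and the median was -0.28. With control replicate 3 left out, 1 rose and 11 fell (8.36% and 10.3% of all tested genes did), 15 were again below 0 (50.9% of all tested genes were), and the median was -0.29. The genes that passed in this fit and not over 6 libraries, beside PFKFB3, PFKFB4 and GPI, were ALDOA (log2 fold change -0.27, adjusted p = 0.0329), ALDOC (-0.35, 0.0289), PGK1 (-0.44, 0.00904), PGAM1 (-0.31, 0.0128) and LDHA (-0.30, 0.0491). TPI1 and GAPDH did not pass in either fit, with log2 fold changes of -0.14 and -0.10 without that library (adjusted p = 0.244 and 0.354). SLC2A1, HK1 and PFKM, which also did not pass in either fit, had a log2 fold change of 0.03 each without it, and ENO2 had -0.22. The 19 enzymes together took up 3.02%, 3.02% and 3.11% of all TPM in the control libraries and 2.71%, 2.61% and 2.45% in the rutaecarpine libraries. The share went from 3.05% ± 0.0546 to 2.59% ± 0.134 (SD, n = 3), a log2 ratio of -0.24. Without GAPDH, the largest contributor, it went from 1.89% to 1.54%, a log2 ratio of -0.29. These sums are dominated by the abundant RNAs of the lower pathway, and HK2 counts for little in them.

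**Figure D2:**
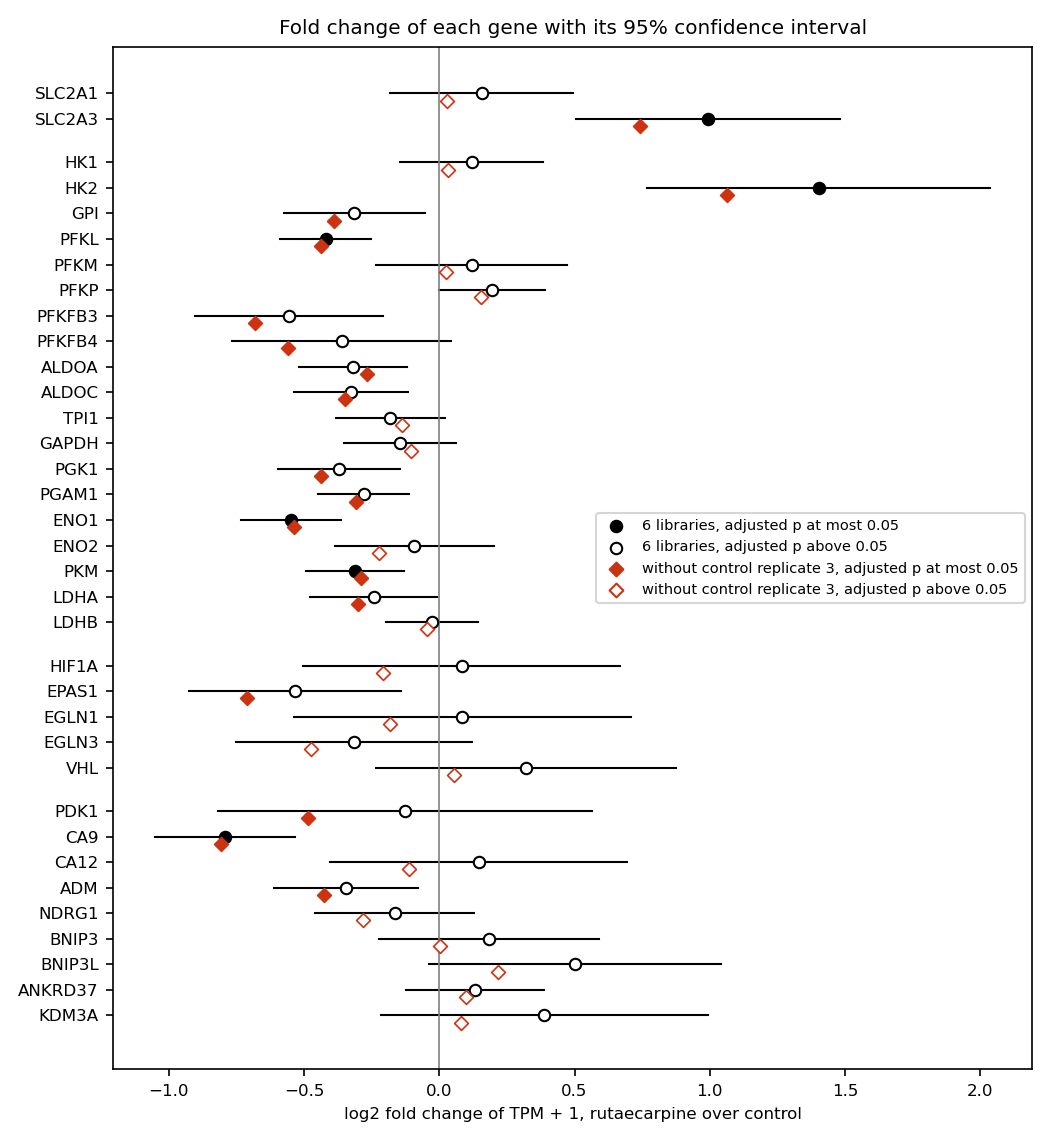
Log2 fold change of TPM + 1 for each gene, rutaecarpine over control, with its 95% confidence interval (circles, 6 libraries), and the same value without control replicate 3 (diamonds). Filled symbols have an adjusted p of at most 0.05. HK2 and SLC2A3 stand alone on the right, and most enzymes lie left of 0, with 11 filled diamonds against 3 filled circles on that side among the enzymes.

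Isozymes and partner genes were compared as ratios of TPM within each library, for 12 pairs. The groups did not overlap in 8 of the 12 (66.7%), where 33.3% of all tested genes, taken singly, had separate groups. The share over pairs of other genes was not taken, and these pairs were chosen with earlier results known. With 3 libraries against 3, the two-sided exact permutation test cannot give a p below 0.1, and all 8 had that value (0.15 after Benjamini-Hochberg adjustment over the 12 pairs). In the hexokinases, HK2 over HK1 was at 0.621, 0.628 and 0.368 in the controls and at 1.25, 1.30 and 1.29 after rutaecarpine. HK1 was thus the more abundant hexokinase RNA in every control library and HK2 in every rutaecarpine library. SLC2A1 over SLC2A3 was at 3.14, 3.60 and 4.39 in the controls and at 2.10, 1.77 and 2.28 after rutaecarpine, so SLC2A1 kept the higher level in all 6 libraries with a smaller lead.

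PFKP over PFKL was at 1.00, 1.00 and 0.948 in the controls and at 1.57, 1.45 and 1.51 after rutaecarpine, a log2 difference of 0.62. The 2 subunit RNAs were about level in the controls, and the platelet type was ahead in each rutaecarpine library. ENO2 over ENO1 was at 0.0732 to 0.100 and at 0.114 to 0.128, with ENO1 the main enolase RNA throughout. PFKFB4 over PFKFB3 was at 1.20 to 1.42 and at 1.43 to 1.72, groups that nearly touched. Ratios that overlapped were PFKP over PFKM, ALDOC over ALDOA, LDHA over LDHB and EGLN3 over EGLN1, with log2 differences of 0.08, -0.01, -0.21 and -0.43 (exact permutation p = 0.7, 0.9, 0.2 and 0.2).

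**Figure D3:**
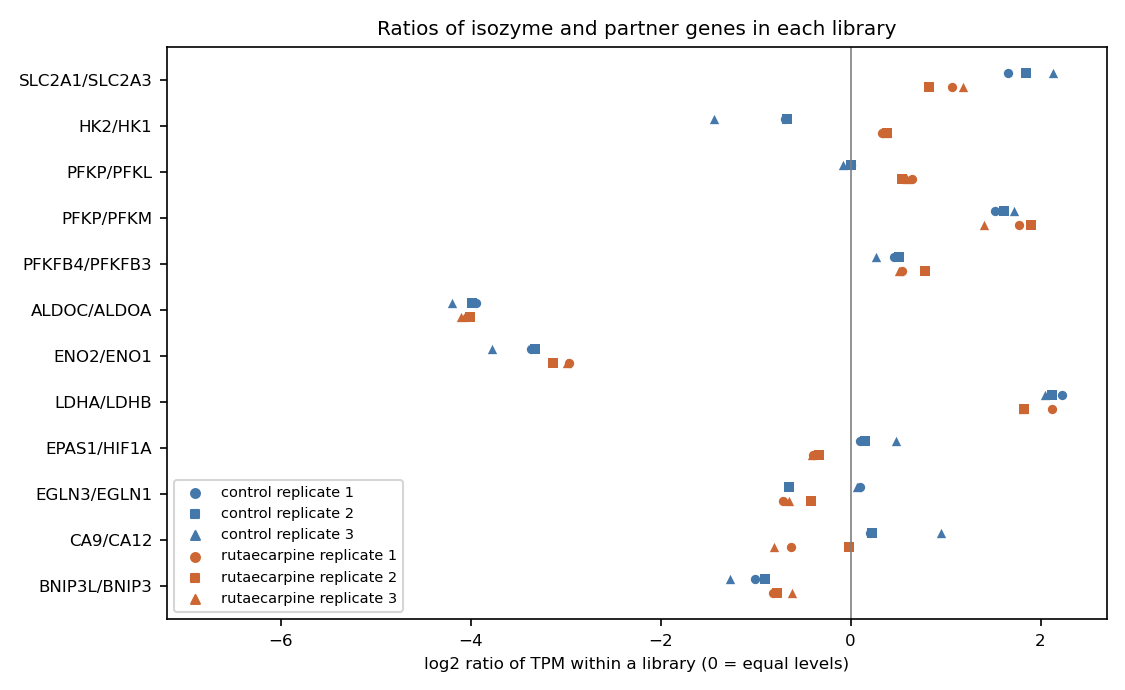
Log2 ratio of TPM of the 12 gene pairs within each library, with 0 marking equal levels. The points of HK2/HK1 cross from left to right of 0 with rutaecarpine, and those of EPAS1/HIF1A and CA9/CA12 cross from right to left.

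None of the 5 HIF factors and regulators passed the test over 6 libraries (limma, with 1 gene at an unadjusted p under 0.05), where 9.29% of all tested genes did. HIF1A was at 277, 262 and 146 TPM in the controls and at 254, 196 and 253 TPM after rutaecarpine. The groups overlapped, and the log2 fold change of 0.08 had a 95% confidence interval from -0.50 to 0.67 (adjusted p = 0.863), wide enough to hold a moderate change in either direction. EPAS1, which encodes HIF2 alpha, was at 296, 292 and 204 TPM in the controls and at 194, 156 and 191 TPM after rutaecarpine. All rutaecarpine libraries lay below all controls, though control replicate 3 lay near them, and the log2 fold change of -0.53 had an adjusted p of 0.102.

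EPAS1 without control replicate 3 fell with a log2 fold change of -0.71 (adjusted p = 0.00315), and HIF1A had a log2 fold change of -0.21 (adjusted p = 0.27). EPAS1 also passed after centring (0.0161). EPAS1 over HIF1A was at 1.07 to 1.39 in the controls and at 0.753 to 0.797 after rutaecarpine, so EPAS1 was the more abundant alpha subunit RNA in every control library and HIF1A in every rutaecarpine library (exact permutation p = 0.1, the smallest possible).

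The regulators were low. EGLN3, itself a HIF target, had the lowest mean of the 35 genes at 15.7 TPM and a log2 fold change of -0.32 (adjusted p = 0.35). EGLN1, the main oxygen sensor of the family, ranged from 13.1 to 28.1 TPM in the controls and from 18.6 to 24.4 TPM after rutaecarpine, with a log2 fold change of 0.09 (adjusted p = 0.865). VHL ranged from 14.3 to 25.9 TPM in the controls and from 23.7 to 29.8 TPM after rutaecarpine (log2 fold change 0.32, adjusted p = 0.447). The lowest control value of EGLN1, EGLN3 and VHL was that of control replicate 3, and without it their log2 fold changes were -0.18, -0.48 and 0.05 (adjusted p = 0.528, 0.0525 and 0.798).

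Of the 9 HIF targets, CA9 fell and none rose over 6 libraries (4.68% and 4.6% of all tested genes did). CA9 (ENSG00000107159, chr9:35673856-35681159, plus strand) encodes a carbonic anhydrase of the cell surface that is known as a sensitive marker of HIF activity. CA9 was at 500.0, 505 and 489 TPM in the controls and at 297, 324 and 245 TPM after rutaecarpine. The controls, replicate 3 included, lay within a narrow range, and all rutaecarpine libraries lay far below it. The mean fell from 498 ± 7.99 to 289 ± 40.2 TPM (SD, n = 3), a change of -0.79 on the log2 scale with an SE of 0.11 (limma adjusted p = 0.00594). CA9 passed whichever library was left out, with log2 fold changes from -0.88 to -0.68, and with centred libraries (adjusted p = 0.0263). CA12, a related carbonic anhydrase, had a log2 fold change of 0.15 (adjusted p = 0.731), and CA9 over CA12 went from 1.15 to 1.93 in the controls to 0.570 to 0.990 after rutaecarpine.

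The other targets were mixed. ADM, which encodes the vasodilator peptide adrenomedullin, was at 281, 267 and 231 TPM in the controls and at 212, 222 and 180 TPM after rutaecarpine, separate groups with a log2 fold change of -0.35 (adjusted p = 0.116). BNIP3L, a mitophagy receptor, was at 175, 172 and 94.9 TPM and at 213, 199 and 192 TPM, also separate, with a log2 fold change of 0.50 (adjusted p = 0.236) that was 0.22 without control replicate 3 (adjusted p = 0.0675). BNIP3, the related receptor, had a log2 fold change of 0.18 (adjusted p = 0.552), and BNIP3L over BNIP3 was at 0.414 to 0.536 and at 0.569 to 0.650. PDK1, which holds pyruvate back from the mitochondria, was at 15.5 to 35.6 TPM in the controls and 21.9 to 25.9 TPM after rutaecarpine. The PDK1 value rested on control replicate 3, since its log2 fold change was -0.13 over 6 libraries (adjusted p = 0.817) and -0.49 without that library (0.0194). NDRG1, ANKRD37 and the histone demethylase gene KDM3A had log2 fold changes of -0.17, 0.13 and 0.39 (adjusted p = 0.46, 0.495 and 0.4). Leaving out control replicate 3 brought NDRG1 to -0.28, ANKRD37 to 0.10, KDM3A to 0.08, BNIP3 to 0.00056 and CA12 to -0.11 (adjusted p = 0.0603 to 0.998). Without control replicate 3, CA9, ADM (log2 fold change -0.43, adjusted p = 0.0201) and PDK1 fell and none of the 9 rose. In that fit 10.3% of all tested genes fell and 8.36% rose. Over the 9 targets the median was 0.13 with all libraries and -0.11 without that library, so its sign turned on 1 control. The median of all tested genes was 0.08 and -0.01 in the same fits.

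Other genes of the same pathways were counted from lists drawn up by function, with earlier results of these data known. Of 39 further glycolysis and pyruvate genes, 30 could be tested, 2 rose and 1 fell (4.6% and 4.68% of all tested genes did), and the median log2 fold change was 0.03. SLC2A6, a transporter of the same family, rose from 14.5 ± 1.38 to 21.9 ± 1.29 TPM (log2 fold change 0.57, limma adjusted p = 0.0351). MPC2, a subunit of the mitochondrial pyruvate carrier, rose from 33.1 ± 1.27 to 45.9 ± 3.43 TPM (0.46, 0.0318). BPGM, which makes bisphosphoglycerate in a side branch, fell from 28.9 ± 0.883 to 20.5 ± 1.87 TPM (-0.48, 0.0421).

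Of 26 genes for pathways that branch from glycolysis, 25 could be tested, 5 rose (4.6% of all tested genes did) and none fell (limma, with 0 falls at an unadjusted p under 0.05). In the synthesis of serine, PSAT1 rose from 73.2 ± 5.78 to 151.5 ± 11.7 TPM (log2 fold change 1.04, limma adjusted p = 0.00146) and PSPH from 19.2 ± 3.68 to 30.1 ± 2.14 TPM (0.64, 0.0479). GFPT1 and GFPT2, the entry enzymes of the hexosamine pathway, rose from 40.1 ± 13.5 to 88.4 ± 11.3 TPM (1.18, 0.0355) and from 177 ± 23.8 to 293 ± 17.8 TPM (0.73, 0.00983). PCK2, the mitochondrial enzyme that makes phosphoenolpyruvate from oxaloacetate, rose from 19.7 ± 3.47 to 40.8 ± 3.54 TPM (1.03, 0.00809). The median of the 25 genes was 0.05, close to the 0.08 of all tested genes.

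Among 14 further regulators of the HIF pathway none passed the test (limma, with 3 genes higher and 0 lower at an unadjusted p under 0.05). Of all tested genes 9.29% passed. The median of the 14 was 0.27, against 0.08 for all tested genes. Without control replicate 3 these medians were 0.15 and -0.01. Of 39 further HIF targets, 37 could be tested, 4 rose and 4 fell (4.6% and 4.68% of all tested genes did), with a median of 0.19 that was -0.01 without control replicate 3. STC2, a secreted glycoprotein that ATF4 also induces, rose most, from 74.1 ± 17.4 to 414 ± 67.1 TPM (log2 fold change 2.48, limma adjusted p = 0.000855). MAFF, a small MAF transcription factor, rose from 34.9 ± 2.47 to 78.9 ± 4.19 TPM (1.16, 0.000919), DDIT4, an inhibitor of mTORC1, from 474 ± 42.4 to 852.5 ± 32.4 TPM (0.85, 0.00191), and the circadian repressor BHLHE40 from 146 ± 34.2 to 243 ± 19.3 TPM (0.76, 0.0436). P4HA2, a collagen prolyl hydroxylase subunit, fell from 364 ± 34.6 to 235 ± 4.50 TPM (-0.62, 0.00651), and MIR210HG, the host transcript of a hypoxia-induced microRNA, from 63.8 ± 7.52 to 41.6 ± 6.93 TPM (-0.61, 0.0466). SAP30 and PLOD1 were the other falls, with log2 fold changes of -0.50 and -0.48, and are named although they lie outside the 6 largest changes of their list. PSAT1, STC2, MAFF, DDIT4 and P4HA2 passed whichever library was left out, PCK2 passed in 5 of these 6 fits and GFPT2 in 4, and the other genes named from these lists passed in 1 to 3. After centring, SLC2A6, MPC2, PSPH, PLOD1, SAP30 and MIR210HG no longer passed (limma adjusted p = 0.0609 to 0.252). In the fit without control replicate 3, 8 of these 37 targets rose and 9 fell, against 8.36% and 10.3% of all tested genes.

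**Figure D4:**
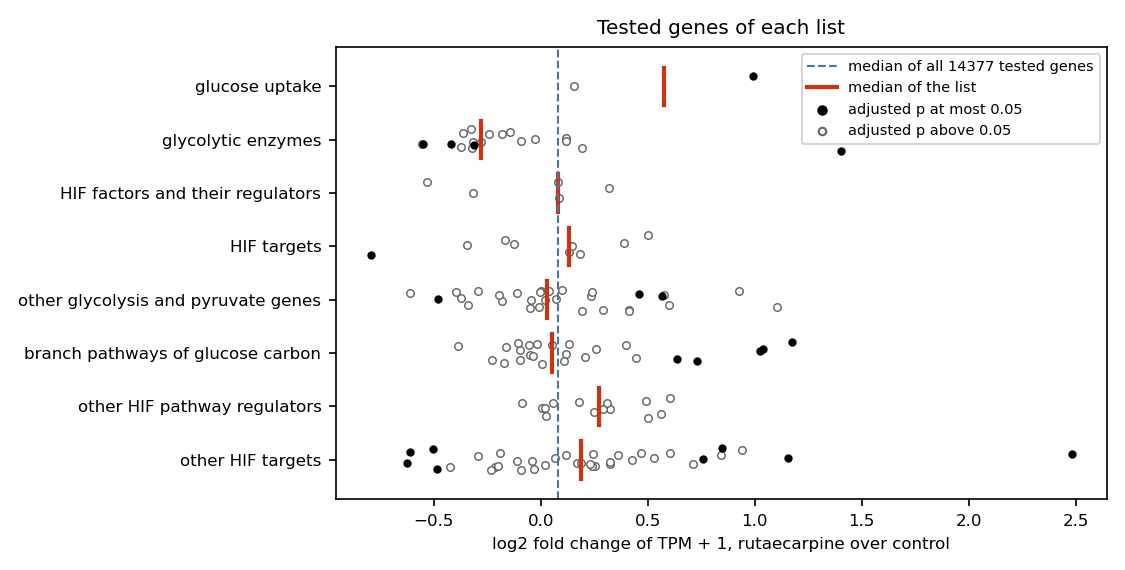
Log2 fold change of TPM + 1 for every tested gene of the member groups and the further lists, 1 circle per gene, with the median of each list (red) and of all 14377 tested genes (dashed). Filled circles have an adjusted p of at most 0.05. The enzymes lie mostly left of the dashed line with HK2 far to the right, the 5 filled circles of the branch pathways lie to the right, and the further HIF targets have filled circles on both sides.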

How the data were processed

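Total RNA of U87 cells was sequenced on an Illumina NovaSeq, and the values the authors deposited are TPM per gene and library, quantified with RSEM. The submitters' processing notes name RSEM, DESeq2, edgeR and the build GRCh38.p13. The aligner and annotation release are not given in the sources used here. TPM keep no read numbers, so the depth is unknown, no counting error was given and count methods were not used. Of the genes listed, 35671 carry no name in the table, and 35432 of these were named by identifier. Groups came from the sample labels.

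Log2(TPM + 1) was compared with limma 3.58.1 in R 4.3.3 (mean-variance trend, two-sided), with a filter of at least 1 TPM in at least 3 libraries. Ratios were tested with an exact permutation test in scipy 1.17.1. Positions are from GENCODE release 29. RSEM divides reads between copies and overlapping genes. Listed pseudogenes summed to at most 0.518% of their parent except for SLC2A3 (up to 8.90%) and EGLN3 (up to 1.18%).

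The 35 genes, the lists and the tests were chosen with earlier results of these data known. Named were all 35 genes, and from each further list up to 6 genes past the adjusted p of 0.05 with the largest changes. Alternatives were centring the libraries on their medians, a pseudocount of 0.1, no filter, limma without the trend, library weights, the replicate number as a block, the share without GAPDH or among named tested genes, and leaving out each library. Replicate numbers came from the labels. The labels state no pairing, and deviations of libraries that share a number correlated at r = 0.116, -0.266 and -0.215. The numbers were therefore not taken as pairs. With deviations taken within groups of 3 libraries, these correlations cannot exclude a pairing. The script was tested on simulated data with independent noise around the control mean of each gene. No simulated library was shifted as a whole, so that test does not cover a library such as control replicate 3.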

Additional observations from a re-analysis of the deposited data

How the results depend on the processing

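TPM give no depth, and 3 libraries a group limit the precision. Control replicate 3 had a weight of 0.121, against 0.611 to 2.49 for the other libraries. Of the 14377 tested genes, 1335 were called in either direction. The number was 1379 with centred libraries, 1212 without the trend, 3962 with library weights and 428 with the replicate block. It was 892 of 29330 without the filter. When 1 library was left out, it ran from 500 of 14114 to 2652 of 14188. The cause of these changes was not tested, beyond the smaller number of samples when a library was left out. The counts of each list below stand beside these numbers.

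Of the transporters and enzymes, 2 rose and 3 fell. The rises were 0 without the filter and 0 to 2 without 1 library. The falls were 1 with centred libraries (5.47% of all tested genes fell), 1 without the trend, 11 with weights and 1 to 11 without 1 library. Of the HIF factors and targets, 1 fell, against 2 with centred libraries, 6 with weights and 1 to 4 without 1 library. With the replicate block, the rises and falls of the transporters and enzymes were 0 and 0, and CA9 alone of the 35 genes was called. Nothing in the labels says whether the replicate numbers pair the samples. In the same block fit, the further glycolysis genes had 0 rises and 0 falls, the branch pathways 2 rises and the further HIF targets 3 rises and 1 fall.

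Of the further glycolysis and pyruvate genes, 1 rose with centred libraries, 1 without the filter, 1 without the trend, 6 with weights and 0 to 4 without 1 library, and 0, 0 and 2 fell without the filter, without the trend and with weights (0 to 2 without 1 library). Of the branch genes, 3 rose without the filter, 3 without the trend and 1 to 6 without 1 library, and 1 fell with weights (0 to 1 without 1 library). Of the further HIF regulators, 1 rose with centred libraries, 3 with weights and 0 to 1 without 1 library. Of the further HIF targets, 10 rose and 9 fell with weights, 1 fell with centred libraries, and 3 to 8 rose and 1 to 9 fell without 1 library. Their median was -0.03 with weights. The enzyme share without GAPDH had a log2 ratio of -0.29.

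Centring moved the median of all genes from 0.08 to -0.01. The log2 fold change of HIF1A was -0.0107 with centred libraries and -0.11 with weights, and that of EGLN1 -0.0074 and -0.15. Without 1 library the range crossed 0 for LDHB (-0.0729 to 0.0036), HIF1A (-0.21 to 0.25), EGLN1 (-0.18 to 0.34), PDK1 (-0.49 to 0.0884) and CA12 (-0.11 to 0.29), and for the log2 ratios of PFKP to PFKM (-0.0303 to 0.22) and ALDOC to ALDOA (-0.0862 to 0.0425). None of these 7 was called over 6 libraries.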
